A study of Mus musculus with 18 samples.

Results

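Medullary thymic epithelial cells (mTECs) that lacked Chd4 or Fezf2 were compared through 1 quantity, the Chd4 effect minus the Fezf2 effect. The Chd4 effect was the log2 fold change of Chd4 cKO over Chd4 control, and the Fezf2 effect was that of Fezf2 KO over WT for Fezf2. The members were the 12 of 18 RNA-seq libraries that make up these 4 groups, with 3 libraries in each. All gene IDs present in the count tables of both experiments entered, 21875 in number, of which 15970 passed a filter on low counts and were tested. The WT for Fezf2 and Fezf2 KO mice were C57BL/6. The column names call the latter Fezf2cKO, while the labels write Fezf2KO, and neither names a Cre. The Chd4 control and Chd4 cKO mice were C57BL/6x129P2 and both carried floxed Chd4 alleles, with Foxn1-Cre added in the cKO, so Chd4 was deleted in cells with a history of Foxn1 expression and not in mTECs alone. The question was which genes the 2 deletions moved alike, which they moved in opposite directions, and where their effects differed beyond the spread of the libraries.

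mTECs are epithelial cells of the inner thymus that transcribe genes of many other organs, and thymocytes that bind the resulting self-antigens too strongly are removed or diverted. Aire and Fezf2 are nuclear regulators needed for separate parts of this self-antigen expression. Chd4 is the ATP-dependent remodeller of the NuRD complex, which moves nucleosomes and carries histone deacetylases, and has been studied as a partner of Fezf2.

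Exon reads on the shared genes ranged from 3571099 to 17217887 per library, and only the Chd4 cKO library B held more than 6945104. The 3 libraries of a group are called A, B and C, because their columns carry no replicate numbers. WT for Fezf2 B stood apart. Its correlation with its own group was 0.900 to 0.902, whereas each of the other 11 libraries reached at least 0.963 with a group mate. Levels are normalised read counts, scaled by library size and TMM factor (CPM). Summed Y-linked CPM were 151 in Chd4 control A and at most 1.75 in the other libraries. Summed Aire, keratin and claudin markers of thymic epithelium reached 6550 to 8573 CPM, with none of the 10 markers at 0 in any library. Experiment, strain and sequencing run changed together, so levels were not compared between the experiments, and each effect was taken within its own. The labels speak of triplicates without naming separate mice, so p-values measured the spread between these libraries.

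The targeted genes were examined first. Fezf2 read 689, 783 and 600 CPM in the 3 WT for Fezf2 libraries and 9.68, 8.98 and 25 CPM in the Fezf2 KO libraries. In the Chd4 experiment it read 533, 536 and 629 CPM in the controls and 833, 938 and 889 CPM in the Chd4 cKO. Fezf2 thus lay far lower in every Fezf2 KO library, and its Chd4 cKO libraries lay above all controls without passing the test (log2 fold change 0.65 ± 0.26 SE, edgeR adjusted p = 0.109). That test was passed without WT for Fezf2 B (0.65, adjusted p = 0.025). The difference of its 2 effects was 6.24 ± 0.40 (adjusted p = 4.63e-07).

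Chd4 itself read 53.0, 63.8 and 56.2 CPM in the controls and 23.7, 26.5 and 29.1 CPM in the Chd4 cKO. It read 44.0, 137 and 45.9 CPM in WT for Fezf2 and 28.1, 33.1 and 40.9 CPM in the Fezf2 KO. Neither pair of groups overlapped, but the value of 137 belonged to library B. The Chd4 effect on Chd4 was -1.13 ± 0.34 (adjusted p = 0.0378) and the Fezf2 effect was -1.15 ± 0.34 (adjusted p = 0.0397). Without WT for Fezf2 B the Fezf2 effect on Chd4 was -0.41 (adjusted p = 0.122), the Chd4 effect was -1.13 (adjusted p = 7.01e-05), and the difference turned from 0.02 to -0.72 (adjusted p = 0.0335). The Chd4 counts are of the whole gene, and values of the deleted exons alone were not used here.

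Aire, the other regulator of the self-antigen programme, read 988, 1004 and 972 CPM in the Chd4 controls and 738, 797 and 739 CPM in the cKO. It read 1369, 1160 and 1308 CPM in WT for Fezf2 and 1041, 1110 and 859 CPM in the Fezf2 KO. Both knockouts lay below their controls, and neither step passed the test (-0.38 with adjusted p = 0.0776, and -0.35 with adjusted p = 0.111). The difference between them was -0.03 with a 95% interval of -0.41 to 0.35. Without WT for Fezf2 B both fell past the threshold, by 0.38 (adjusted p = 0.00744) for Chd4 and by 0.42 (adjusted p = 0.0123) for Fezf2.

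Across all genes the effects of the 2 deletions were close to uncorrelated. The Chd4 effect passed an adjusted p of 0.05 for 2204 genes, 13.8% of those tested, with 988 higher (6.19%) and 1216 lower (7.61%). The Fezf2 effect passed it for 1864 genes (11.7%), with 911 higher (5.7%) and 953 lower (5.97%). The difference of the effects passed it for 2152 genes (13.5%), with 1048 higher (6.56%) and 1104 lower (6.91%), where higher means that the Chd4 effect was the more positive. The Chd4 and Fezf2 counts depended on the fit. The main fit shared a spread per gene between the experiments, whose own spread (BCV) was 0.149 for Chd4 and 0.275 for Fezf2. Separate fits of each experiment gave 2168 higher and 2175 lower genes for Chd4, and 380 and 363 for Fezf2. DESeq2 gave 1375 and 1505 for Chd4, and 1230 and 1327 for Fezf2. The similar counts therefore do not show that the deletions moved similar numbers of genes. Over the 15970 genes, the Pearson correlation of the 2 effects was 0.03 and Spearman's rho 0.01. Genes share libraries and are not independent replicates, so these correlations are descriptions.

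Genes lower in the Fezf2 KO lay about evenly on both sides of 0 in the Chd4 cKO. Their median Chd4 log2 fold change was -0.004 and 50.2% lay below 0, beside 50.1% of all genes. Of the 636 that fell at least 2-fold, 54.2% lay below 0. Genes lower in the Chd4 cKO had a median Fezf2 log2 fold change of -0.07, with 53.9% below 0 beside 52.0% of all genes.

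**Figure D1:**
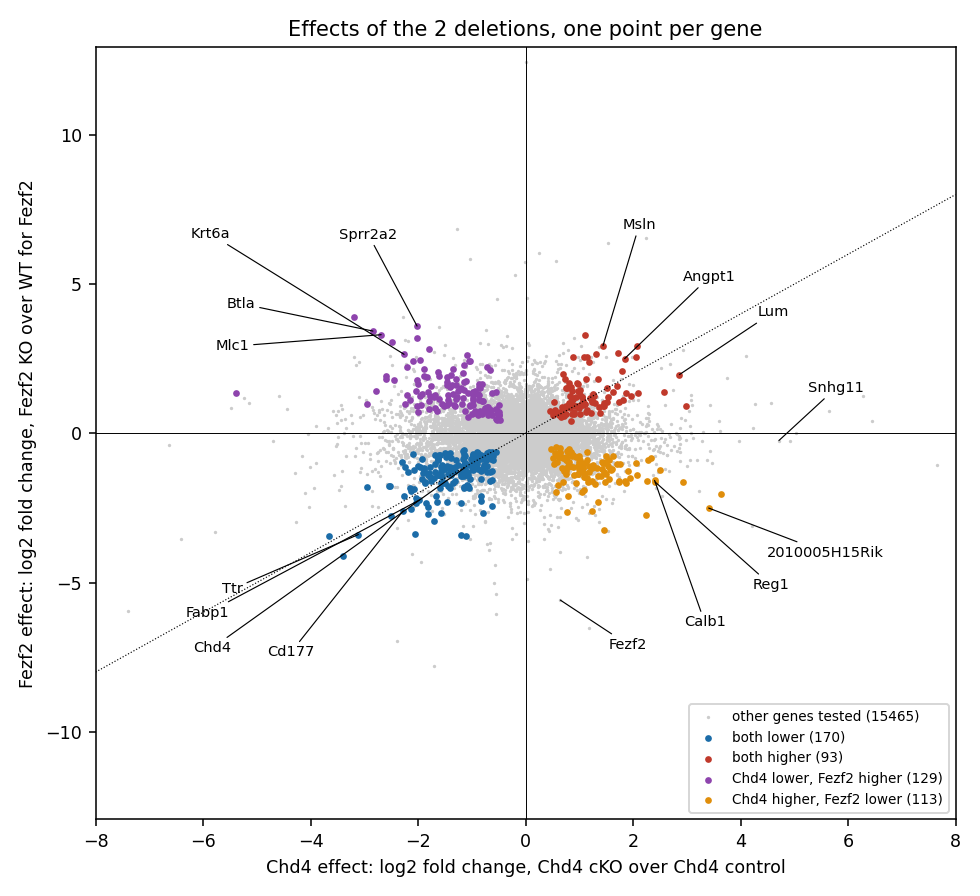
Each point is 1 gene, placed by its log2 fold change in the Chd4 cKO (horizontal axis) and in the Fezf2 KO (vertical axis); colours mark the genes past an adjusted p of 0.05 in both effects and the dotted line marks equal effects. The 170 genes lower in both, the 93 higher in both and the 129 and 113 genes that moved in opposite directions fill all 4 quadrants.

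Both effects were past the threshold for 505 genes. Of these, 263 moved in the same direction, 170 lower and 93 higher in both, and 242 moved in opposite directions, 129 lower with Chd4 and higher with Fezf2, and 113 the other way. The genes lower in both made up 13.98% of the Chd4-lower and 17.8% of the Fezf2-lower genes. The genes higher in both made up 9.41% and 10.2% of the higher genes of each. Those lower in the Chd4 cKO and higher in the Fezf2 KO were 10.6% of the Chd4-lower and 14.2% of the Fezf2-higher genes, and the reverse class was 11.4% of the Chd4-higher and 11.9% of the Fezf2-lower genes. Of all tested genes, 7.61% were Chd4-lower, 6.19% Chd4-higher, 5.97% Fezf2-lower and 5.7% Fezf2-higher. The shares of all 4 classes, alike or opposite, lay above those of the other effect over all genes. No overlap was tested. When WT for Fezf2 B was left out the 4 classes held 274, 202, 276 and 256 genes, and 154, 88, 120 and 100 of the original members were among them. DESeq2 kept 170, 92, 129 and 113 of the original members, and limma-voom with a weight per group kept 111, 44, 78 and 50. Separate fits of each experiment kept 91, 43, 71 and 41. Only 56, 33, 40 and 28 were called in both effects in every fit that left out 1 library. All 242 genes with opposite effects were past the threshold for the difference. Subtracting effects of opposite sign adds their sizes, so this was nearly given by how these genes were chosen and is no separate finding. Of the 263 genes that moved together, 29 were past the threshold for the difference.

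The strongest genes of each class were named by 1 rule, which ranked a class by the smaller of the 2 absolute effects among genes called in both effects in every fit that left out 1 library. Promoters of 4 of them, given by RefSeq on GRCm38.p6 from 250 bases before to 50 after the start, are printed to show which sequences stand at genes that moved together or apart. Capitals mark TATAAA, searched on both strands, which 13.6% of all 32817 RefSeq mouse promoters of this length hold. Across those promoters the median count of CpG was 7, with quartiles of 3 and 20. Cd177 (chr7:24760262-24760561, minus strand, 4 CpG) was lower in both knockouts, Slc2a10 (chr2:165503647-165503946, plus strand, 12 CpG) was higher in both, Btla (chr16:45224087-45224386, plus strand, 5 CpG) was lower with Chd4 and higher with Fezf2, and Reg1 (chr6:78425733-78426032, plus strand, 0 CpG) was higher with Chd4 and lower with Fezf2.
Cd177: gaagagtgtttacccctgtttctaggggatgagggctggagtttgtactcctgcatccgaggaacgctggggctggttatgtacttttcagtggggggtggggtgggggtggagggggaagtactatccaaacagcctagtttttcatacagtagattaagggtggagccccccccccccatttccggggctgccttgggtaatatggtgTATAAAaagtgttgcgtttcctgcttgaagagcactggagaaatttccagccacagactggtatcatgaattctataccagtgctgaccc
Slc2a10: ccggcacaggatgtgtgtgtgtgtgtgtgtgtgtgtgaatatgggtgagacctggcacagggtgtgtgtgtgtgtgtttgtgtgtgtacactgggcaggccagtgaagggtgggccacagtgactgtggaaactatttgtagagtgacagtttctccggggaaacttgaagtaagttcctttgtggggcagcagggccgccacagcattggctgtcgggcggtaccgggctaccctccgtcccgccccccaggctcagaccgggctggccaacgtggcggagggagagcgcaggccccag
Btla: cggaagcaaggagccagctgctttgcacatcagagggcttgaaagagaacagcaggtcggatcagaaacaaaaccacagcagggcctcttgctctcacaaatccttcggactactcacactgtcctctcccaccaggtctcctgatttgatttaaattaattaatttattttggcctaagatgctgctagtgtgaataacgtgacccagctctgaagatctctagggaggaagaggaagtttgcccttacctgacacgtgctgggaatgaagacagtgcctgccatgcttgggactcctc
Reg1: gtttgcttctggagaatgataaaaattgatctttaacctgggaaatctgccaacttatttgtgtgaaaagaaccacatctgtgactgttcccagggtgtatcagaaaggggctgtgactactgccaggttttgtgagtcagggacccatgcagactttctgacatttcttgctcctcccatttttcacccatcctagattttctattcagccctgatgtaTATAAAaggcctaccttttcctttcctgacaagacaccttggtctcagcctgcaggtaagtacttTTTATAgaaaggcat
The TATAAA of Cd177 begins at position -40 from the start, and Reg1 holds 2 matches. The rule drew 2 promoters per class, and those not printed, of Speer4e, Slc16a11, Mlc1 and Chrna10, hold no match. Reg1 is printed although Chrna10 ranked just above it, so the printed promoters do not show how often the classes hold TATAAA. No match in Slc2a10 or Btla says only that these letters are not in the window.

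Among genes lower in both knockouts the named genes were Ttr, Cd177, Speer4e, Hsd17b6, Fabp1 and Lypd8. Ttr, the thyroxine and retinol carrier transthyretin made by liver and choroid plexus, read 25.6, 36.5 and 33.8 CPM in the Chd4 controls and 2.22, 6.05 and 1.65 CPM in the cKO. In the Fezf2 experiment it read 21.9, 72.3 and 20.8 CPM in WT and 6.70, 0.657 and 3.18 CPM in the KO. Ttr was lower in all 6 knockout libraries than in any control. Its Chd4 effect was -3.11 ± 0.59 (adjusted p = 0.00286), its Fezf2 effect was -3.39 ± 0.63 (adjusted p = 0.00277), and their difference was 0.28 with a 95% interval of -1.39 to 1.95. Without WT for Fezf2 B the Fezf2 effect on Ttr was -2.55 (adjusted p = 0.00386).

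Fabp1, the fatty acid-binding protein of liver and small intestine, read 38.2, 45.8 and 37.5 CPM in the Chd4 controls and 9.41, 10.4 and 11.2 CPM in the cKO. It read 36.9, 104 and 39.1 CPM in WT for Fezf2 and 17.9, 9.42 and 10.5 CPM in the Fezf2 KO. A difference between the steps was not called (0.26, 95% interval -0.72 to 1.24), and without WT for Fezf2 B the Fezf2 effect was -1.57 in place of -2.23. Lypd8, an intestinal GPI-anchored protein that keeps flagellated bacteria off the colonic epithelium, fell by 2.14 with Chd4 (adjusted p = 0.000133) and by 1.93 with Fezf2 (adjusted p = 0.000271). Its levels were 207, 166 and 222 CPM in the Chd4 controls, 48.9, 49.4 and 36.3 CPM in the cKO, 276, 439 and 300 CPM in WT for Fezf2, and 122, 89.8 and 53.8 CPM in the Fezf2 KO. Hsd17b6, an enzyme of androgen and retinol metabolism, stood out for its even replicates. It read 28.3, 29.3 and 28.7 CPM in WT for Fezf2 against 5.21, 8.54 and 5.63 CPM in the KO, and 30.7, 24.9 and 22.4 CPM in Chd4 controls against 7.61, 5.65 and 5.57 CPM in the cKO. The effects were -2.05 ± 0.24 and -2.15 ± 0.25, and the interval of their difference was -0.57 to 0.78. Cd177, a neutrophil surface protein also found in epithelia, fell by 2.27 with Chd4 and by 2.59 with Fezf2. Speer4e belongs to a family of near-identical copies, so its values of -2.26 and -2.11 are uncertain as to the copy.

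Of the 170 genes lower in both, 99 fell at least 2-fold in both. The medians were -1.32 for Chd4 and -1.25 for Fezf2. A difference was called for 17 of them.

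Among genes higher in both knockouts, Msln showed the clearest levels. Msln, the mesothelial surface protein mesothelin, read 759, 679 and 473 CPM in the Chd4 controls and 2011, 1711 and 1463 CPM in the cKO. It read 560, 384 and 506 CPM in WT for Fezf2 and 3462, 4034 and 3610 CPM in the Fezf2 KO. It rose by 1.44 ± 0.20 with Chd4 (adjusted p = 0.000261) and by 2.94 ± 0.21 with Fezf2 (adjusted p = 1.04e-06), and the rise was larger with Fezf2 (difference -1.50 ± 0.27, adjusted p = 0.00231). Ccn1, a matricellular protein known as a target of YAP, read 107, 70.7 and 65.3 CPM in the Chd4 controls and 251, 127 and 316 CPM in the cKO. It read 92.7, 60.3 and 145 CPM in WT for Fezf2 and 289, 239 and 329 CPM in the Fezf2 KO. The effects on Ccn1 were 1.51 (adjusted p = 0.00719) and 1.53 (adjusted p = 0.00756), with a difference of -0.01 and an interval of -0.92 to 0.90.

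Lum, the collagen-binding proteoglycan lumican, rose by 2.86 with Chd4 (adjusted p = 1.19e-05) and by 1.97 with Fezf2 (adjusted p = 0.000271), from 3.80 to 6.19 CPM in the controls of the first to 29.1 to 42.3 CPM. Angpt1, a ligand of the endothelial receptor Tek, rose by 1.84 and 2.50. The sugar transporter gene Slc2a10 rose by 2.05 and 2.56, and the monocarboxylate transporter gene Slc16a11 by 1.79 and 2.08. For these 4 genes a difference between the effects was not called, and the widest interval was that of Slc2a10, -1.71 to 0.70. The 93 genes higher in both had medians of 1.02 for Chd4 and 1.13 for Fezf2. Of these, 38 rose at least 2-fold in both.

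The named genes lower with Chd4 and higher with Fezf2 included Krt6a, Sprr2a2, Sprr2a3, Gsto1, Btla and Mlc1. Krt6a, a keratin of stressed and suprabasal epidermis, read 17.2, 24.9 and 26.04 CPM in the Chd4 controls and 3.88, 5.59 and 4.34 CPM in the cKO. It read 56.0, 30.4 and 58.1 CPM in WT for Fezf2 and 242, 280 and 386 CPM in the Fezf2 KO. Krt6a thus lay below its controls in one knockout and above them in the other, with no overlap in either. Its effects were -2.26 ± 0.29 (adjusted p = 0.000172) and 2.65 ± 0.25 (adjusted p = 1.37e-05), and the difference was -4.91 ± 0.39 (adjusted p = 2.53e-06).

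Sprr2a3, which encodes a small proline-rich precursor of the cornified envelope, read 26.6, 33.4 and 27.6 CPM in the Chd4 controls and 7.06, 7.40 and 7.23 CPM in the cKO. It read 28.8, 39.1 and 36.8 CPM in WT for Fezf2 and 337, 319 and 295 CPM in the Fezf2 KO, and the difference of its effects was -5.20 ± 0.24 (adjusted p = 1.27e-08). Its neighbour Sprr2a2 had the higher counts, 280, 336 and 233 against 57.7, 80.5 and 70.6 CPM for Chd4, and 309, 609 and 341 against 5020, 5327 and 4876 CPM for Fezf2. The Sprr2a copies are near-identical, so how the counting split reads between them is uncertain. Lor, the cornified envelope protein loricrin, lies in the same stretch of chromosome 3 between 92080271 and 92285417 (starts on GRCm38) and moved the same way, by -1.77 and 1.24. Its Fezf2 call was kept in 9 of 12 fits that left out 1 library.

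Outside the epidermis, the glutathione transferase gene Gsto1 read 42.5, 46.7 and 35.9 CPM in the Chd4 controls and 18.3, 7.06 and 3.51 CPM in the cKO, beside 186, 116 and 104 CPM in WT for Fezf2 and 678, 694 and 811 CPM in the Fezf2 KO. Btla, an inhibitory receptor of lymphocytes, had effects of -2.84 ± 0.64 and 3.43 ± 0.54, and Mlc1, a membrane protein of astrocytes, had effects of -2.69 ± 0.54 and 3.31 ± 0.67. Mlc1 rested on few reads in WT for Fezf2, with 0.664, 0 and 0.507 CPM, where 3 reads correspond to 0.680 to 0.779 CPM. The 129 genes of this class had medians of -1.23 and 1.27, and 63 moved at least 2-fold both ways.

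The reverse class, higher with Chd4 and lower with Fezf2, held Reg1, Calb1, Il5ra, Chrna10, 2010005H15Rik and AI854703. Reg1, a secreted lectin of pancreas and gut, read 54.1, 61.9 and 46.6 CPM in the Chd4 controls and 321, 364 and 178 CPM in the cKO. It read 59.1, 90.8 and 56.8 CPM in WT for Fezf2 and 17.9, 19.3 and 29.8 CPM in the Fezf2 KO. Its effects were 2.41 ± 0.28 and -1.63 ± 0.28, and the difference was 4.04 ± 0.39 (adjusted p = 1.91e-05). Calb1, the calcium buffer calbindin of neurons and kidney tubule, read 25.8, 33.2 and 27.9 CPM in Chd4 controls and 196, 146 and 118 CPM in the cKO, and 47.3, 39.9 and 25.9 CPM in WT for Fezf2 and 12.1, 19.3 and 6.36 CPM in the Fezf2 KO. The difference for Calb1 was 3.98 ± 0.44 (adjusted p = 6.02e-05).

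Il5ra, the interleukin-5 receptor chain, moved by 2.26 ± 0.29 and -1.59 ± 0.31. Chrna10, a subunit of the acetylcholine receptor of cochlear hair cells, moved by 1.75 ± 0.23 and -1.64 ± 0.25, but it overlaps Art1 in the annotation, so reads of the 2 genes may be mixed. The 2 genes without a common name had differences of 5.91 for 2010005H15Rik and 4.96 for AI854703. Des, the muscle intermediate filament desmin, was the member of the skeletal muscle list in this class. It read 37.7, 42.2 and 35.4 CPM against 208, 237 and 204 CPM for Chd4, and 30.1, 34.1 and 34.2 CPM against 12.7, 17.5 and 11.7 CPM for Fezf2, with a difference of 3.72 ± 0.24 (adjusted p = 4.63e-07). Its neighbours Speg and Slc4a3 on chromosome 1, with starts up to 75546266, belonged to the same class. The 113 genes had medians of 1.08 and -1.15, and 52 moved at least 2-fold both ways.

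**Figure D2:**
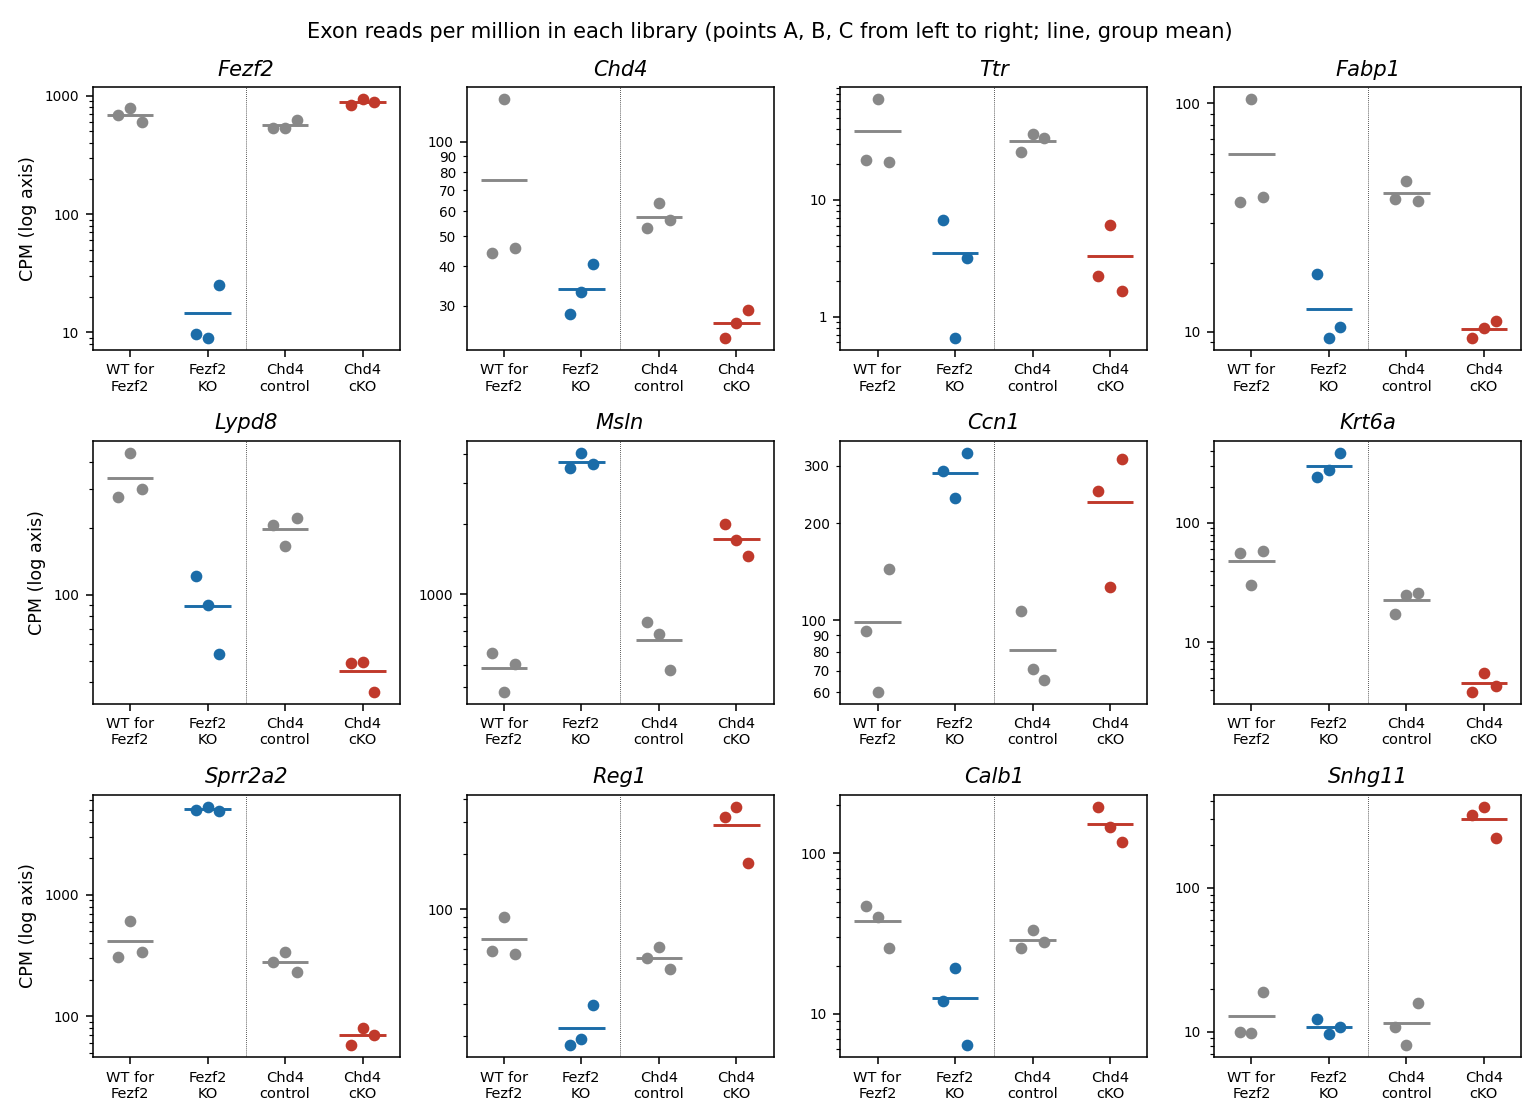
CPM of 12 genes in every library on log axes, with the Fezf2 experiment left and the Chd4 experiment right of the dotted line; points are libraries and lines are group means. Ttr, Fabp1 and Lypd8 lie lower in both knockouts, Msln and Ccn1 higher in both, Krt6a and Sprr2a2 move down with Chd4 and up with Fezf2, Reg1 and Calb1 the reverse, and Snhg11 passed the test for Chd4 and not for Fezf2, with 221 to 367 CPM in the Chd4 cKO.

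Most called genes were called in 1 effect only. There were 3058 such genes, and for 1530 of them the difference itself passed the test; the others were not shown to differ between the deletions. Of the 917 genes lower with Chd4 alone, 432 differed, and of the 782 higher with Chd4 alone, 377 did. The counts were 358 of 670 for genes lower with Fezf2 alone and 363 of 689 for those higher. A further 351 genes differed without passing the test in either effect. Over all tested genes the median standard error of the difference was 0.37, and the smallest absolute difference that passed the test was 0.59. Larger differences could also be missed, as the median 95% interval reached 0.66 to each side for genes of at least 5 CPM.

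**Figure D3:**
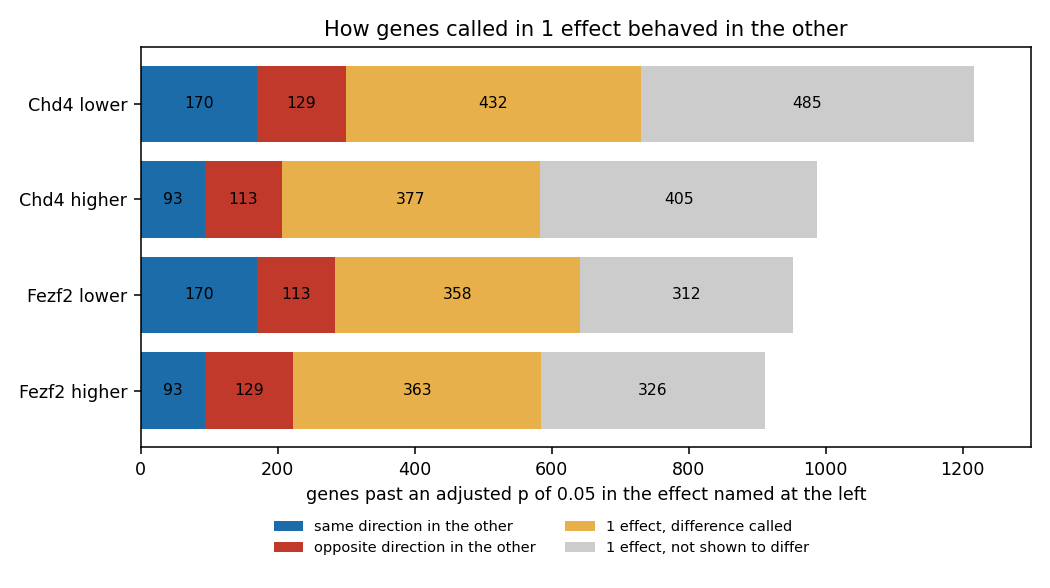
Each bar holds the genes past an adjusted p of 0.05 in 1 effect and 1 direction, split by what the same genes did in the other effect. Of the 1216 Chd4-lower genes, 170 were lower and 129 higher with Fezf2, 432 differed and 485 were not shown to differ.

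Some of the largest differences belonged to genes called in 1 experiment only. Snhg11, a long non-coding RNA that hosts small nucleolar RNAs and is abundant in neurons, read 10.8, 8.06 and 15.8 CPM in the Chd4 controls and 323, 367 and 221 CPM in the cKO. In the Fezf2 experiment it stayed between 9.64 and 19.0 CPM in all 6 libraries. Its difference was 4.96 ± 0.42 (adjusted p = 5.63e-06). Hoxc11, a posterior homeobox gene, read 2.66, 17.9 and 3.30 CPM in WT for Fezf2 and 0.931, 0.219 and 0 CPM in the Fezf2 KO, and 6.19, 4.74 and 4.11 against 11.5, 11.98 and 9.70 CPM for Chd4. The Hoxc11 difference was 5.30 ± 1.049 (adjusted p = 0.004), and 3.91 (adjusted p = 0.00198) without WT for Fezf2 B. The X-linked lymphocyte-regulated genes Xlr3a and Xlr5a had differences of 5.66 and 4.93, and their copies are hard to tell apart. Xlr3a passed the test in both effects, but its Fezf2 call was kept in 9 of 12 fits that left out 1 library and was lost without WT for Fezf2 B (adjusted p = 0.0526). A430089I19Rik had no read in any Fezf2 KO library, so no fold is given. Its reads could come from near-identical copies.

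At the other end, the seminal vesicle protein genes Svs4 and Svs2 and the defensin gene Defb23, all on chromosome 2, were near or under 3 reads in the Chd4 cKO, so their fitted fold changes depend on the fit's prior count. Svs4 read 7.80, 6.17 and 6.85 CPM in the Chd4 controls and 0.138, 0.0565 and 0.413 CPM in the cKO, where 3 reads correspond to 0.432, 0.174 and 0.637 CPM. It read 7.52, 4.47 and 5.33 CPM in WT for Fezf2 and 13.96, 13.4 and 17.1 CPM in the Fezf2 KO. The Svs4 difference was -6.74 ± 0.64 (adjusted p = 1.48e-05), with a Fezf2 rise that was kept in 8 of 12 fits that left out 1 library. Svs2 read at most 0.206 CPM and Defb23 at most 0.413 CPM in the cKO, and for neither did the Fezf2 effect pass the test (adjusted p = 0.113 and 0.354). Nlrp14, a germ cell gene of the NLR family, was lower in the Chd4 cKO, with a difference of -6.15 ± 1.31. Gm10020 rose in the Fezf2 KO alone, from at most 1.27 CPM to 45.6, 47.3 and 59.0 CPM. Gm2956 had no read in WT for Fezf2 and may share reads with near-identical copies, so it is only named.

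The lists of tissue and pathway genes give each comparison's own counts, to be read against the percentages of all genes above. Counts of 2 or fewer changed in many of the fits that left out 1 library. Of 31 tested enterocyte and liver genes, 17 fell with Chd4 and 17 with Fezf2, with 1 higher in each, and 11 fell in both. The medians were -0.83 and -1.08, beside -0.001 and -0.03 over all genes. Among them were Apob, Ttr, Fabp1, Fabp2, Vil1, Lgals4, Cdhr5, Hnf4g and Saa1, which include lipid carriers, brush border proteins and an enterocyte transcription factor, Hnf4g. Their number ranged from 8 to 12 when 1 library was left out and was 8 in separate fits of each experiment. Saa1, an acute-phase protein, read 257 against 71.1 CPM on average for Chd4 and 586 against 116 CPM for Fezf2. The difference was past the threshold for 13 members of the list, 7 higher and 6 lower, and the lower count was 2 or 3 without Fezf2 KO A, Fezf2 KO B, Chd4 control A, Chd4 control B or Chd4 cKO B. The apolipoprotein genes Apoc3, Apoc2 and Apoa4 and the acute-phase gene Saa3 fell with Fezf2 alone and differed. Saa3 read 811, 1725 and 767 CPM in WT for Fezf2 and 107, 105 and 71.4 CPM in the KO, but 550, 484 and 616 against 429, 489 and 470 CPM for Chd4 (difference 3.29 ± 0.38, adjusted p = 7.51e-05). The 3 fibrinogen chain genes Fga, Fgb and Fgg and the bile acid-binding Fabp6 fell with Chd4 alone and differed, with differences of -1.49, -2.21, -1.31 and -1.37.

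Of 23 tested pancreas genes, 8 fell with Chd4 and 2 with Fezf2, and 1 rose with Fezf2. The Fezf2-lower count was 5 without WT for Fezf2 A, 4 without WT for Fezf2 C and 1 without Fezf2 KO A or B. Ins2, the insulin gene, and Ctrb1, a chymotrypsinogen, fell in both, Ins2 by 1.15 and 1.83. The islet hormone genes Iapp and Sst fell by 1.86 and 1.89 with Chd4, with differences of -2.07 (adjusted p = 0.00174) and -1.45 (adjusted p = 0.0356). Pnlip, pancreatic lipase, read 2.69, 4.51 and 7.31 CPM in the Chd4 controls and 0.138, 0.847 and 0.619 CPM in the cKO. Gp2, a surface glycoprotein of pancreatic acinar and microfold cells, went opposite ways, -1.69 with Chd4 and 0.86 with Fezf2. The Fezf2 call of Gp2 was lost without WT for Fezf2 A, any 1 Fezf2 KO library, Chd4 cKO A or Chd4 cKO C. Of 21 lung and airway secretory genes, 8 fell and 1 rose with Chd4, and 3 fell and 4 rose with Fezf2. Ltf, the iron-binding lactoferrin, moved by -1.46 and 1.70, with the Chd4 call kept in 7 of 12 such fits. The Chd4-lower count of this list was 5 without Chd4 control B, Chd4 control C, Chd4 cKO A or Chd4 cKO C, and its Fezf2-lower count was 1 without Fezf2 KO B. Muc1 and Lyz2 fell in both.

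Tuft cells are chemosensory epithelial cells. Of 21 tested tuft cell genes, 12 fell with Chd4 and 6 with Fezf2, with 1 higher in each. Sh2d6, Ptgs1, Gfi1b and Ltc4s fell in both. The Fezf2 count was 0 in the separate fit of its experiment and between 0 and 7 when 1 library was left out, with 0 without Fezf2 KO B, 1 without Fezf2 KO A and 3 without WT for Fezf2 C. The Chd4 count was 7 without Chd4 control C or Chd4 cKO C and otherwise at most 13. Of the 4 genes in both, 0 were left without Fezf2 KO A or B. Among the genes called for the difference were Avil (-0.997) and Alox5ap (-2.15) on the lower side and the tuft cell regulator Pou2f3 (0.93) on the higher. Pou2f3 kept this call in 11 of 12 fits that left out 1 library, Avil in 6 and Alox5ap in 3. Pou2f3 read 48.2, 48.6 and 54.6 CPM against 63.8, 55.8 and 55.9 CPM for Chd4, and 55.1, 53.6 and 74.1 against 35.9, 34.0 and 41.6 CPM for Fezf2.

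Of 28 tested cornified keratinocyte genes, 6 fell and 3 rose with Chd4, and 3 fell and 9 rose with Fezf2. The medians were -0.56 and 0.34, and the difference was called for 13, with 9 lower and 4 higher. When WT for Fezf2 B was left out, 10 fell and 5 rose with Chd4 and 14 were lower for the difference. The count that rose with Chd4 was 1 without Chd4 control B, Chd4 control C or Chd4 cKO B. Spink5, an inhibitor of epidermal kallikreins, read 99.5, 117 and 146 CPM in Chd4 controls and 34.9, 47.4 and 36.5 CPM in the cKO, and 193, 275 and 276 CPM in WT for Fezf2 and 438, 512 and 697 CPM in the Fezf2 KO. Its difference was -2.75 ± 0.31 (adjusted p = 5.59e-05). Sbsn and Sprr1a rose with Fezf2 alone, by 1.73 and 1.52, with differences of -2.29 and -1.29. Krt10, the suprabasal keratin, was among the 3 that fell with Fezf2. It read 185, 300 and 217 CPM in WT for Fezf2 and 38.9, 36.1 and 25.9 CPM in the KO, against 102, 88.2 and 161 and 62.6, 132 and 86.3 CPM for Chd4 (difference 2.47 ± 0.41, adjusted p = 0.00111). Tgm3, a transglutaminase, rose with Chd4 and fell with Fezf2 in the main fit. No gene of the list was called both ways without WT for Fezf2 C, any 1 Fezf2 KO library, Chd4 control B, Chd4 control C or Chd4 cKO B. The same held in limma-voom and in separate fits of each experiment.

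The annexins, phospholipid-binding proteins, included 2 members with tight replicates. Anxa1 read 429, 404 and 433 CPM in WT for Fezf2 and 3998, 3588 and 4523 CPM in the Fezf2 KO, while it read 335, 307 and 396 CPM in the Chd4 controls and 266, 281 and 273 CPM in the cKO (difference -3.60 ± 0.20, adjusted p = 1.53e-07). Anxa10 read 103, 103 and 96.1 CPM in WT for Fezf2 and 16.2, 16.2 and 16.6 CPM in the KO, and 48.2, 53.1 and 40.4 against 83.6, 96.4 and 61.9 CPM for Chd4 (difference 3.40 ± 0.25, adjusted p = 1.4e-06). Anxa1 thus rose with Fezf2 without passing the test for Chd4 (adjusted p = 0.125), and Anxa10 fell with Fezf2 and rose with Chd4 by 0.78 (adjusted p = 0.00747). Of 25 annexin and S100 genes tested, 6 were lower and 1 was higher for the difference, and the lower count was 11 without WT for Fezf2 B and 3 without WT for Fezf2 C, Chd4 control B or any 1 Chd4 cKO library.

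Of 12 tested genes of immature (mTEC-lo) and basal epithelial cells, 6 rose and 2 fell with Chd4, 2 rose and 2 fell with Fezf2, and the difference was higher for 5 and lower for 1, the latter 3 when WT for Fezf2 B was left out. Ccl21a, the chemokine that draws thymocytes into the medulla, read 1734, 1519 and 2043 CPM in the Chd4 controls and 3881, 5184 and 4642 CPM in the cKO, with 659, 1533 and 937 against 832, 725 and 915 CPM for Fezf2 (difference 1.71 ± 0.34, adjusted p = 0.00415). Pdlim3, an actin-binding protein, rose by 2.17 with Chd4 and had a difference of 1.86. Col17a1, the hemidesmosomal collagen, read 88.9, 99.1 and 89.3 CPM in WT for Fezf2 and 25.9, 16.0 and 18.1 CPM in the KO, with a Chd4 effect of 0.61 (adjusted p = 0.0534) and a difference of 2.81 ± 0.29 (adjusted p = 3.05e-05). Of 30 extracellular matrix and integrin genes, 8 rose and 2 fell with Chd4, 1 rose and 5 fell with Fezf2, and the difference was higher for 6 and lower for 0. The collagen VI chain genes Col6a1 and Col6a2 moved in opposite directions, by 1.45 and -1.0, and by 0.74 and -1.37. The Fezf2 call of Col6a1 was kept in 9 of 12 fits that left out 1 library, and the Chd4 call of Col6a2 in 7. The Chd4-higher count of the list was 4 without Chd4 control C and 5 without Chd4 cKO C, and the Fezf2-lower count was 10 without WT for Fezf2 B and 3 without Fezf2 KO A or B. The Chd4-lower count was 6 without WT for Fezf2 B, and 1 gene was lower for the difference without Fezf2 KO A.

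Among 15 mTEC maturation genes, 7 fell and 0 rose with Chd4, and 3 fell, Fezf2 among them, and 1 rose with Fezf2. The Chd4 count was 4 without Chd4 control A or Chd4 cKO A, and 5 fell and 2 rose with Fezf2 without WT for Fezf2 B. Hdc, histidine decarboxylase, fell in both, by 1.46 and 1.10. The costimulatory gene Cd86 read 56.2, 47.9 and 29.9 CPM in the Chd4 controls and 12.9, 12.03 and 17.96 CPM in the cKO, with a Fezf2 effect of -0.10 and a difference of -1.56 (adjusted p = 0.0142), kept in 10 of 12 fits that left out 1 library. Of 19 interferon-stimulated genes, 9 fell with Chd4 and 3 with Fezf2, and no list member was in both sets. The Chd4 count was 4 without Chd4 cKO B and 5 without Chd4 cKO C. Rsad2 fell by 1.71 with Chd4 and had a difference of -2.16 ± 0.33 (adjusted p = 0.000644), whereas Oas3 fell by 1.18 with Fezf2 and had a difference of 1.17 (adjusted p = 0.0293), kept in 5 of 12 such fits. Of 21 immediate-early and stress genes, 11 rose and 1 fell with Chd4, and 0 rose and 1 fell with Fezf2. The difference was called for 2 of them, Nr4a1 (2.03) and Ier2 (0.80), and Ier2 kept it in 3 of 12 fits that left out 1 library. For the other 9 that rose with Chd4, among them Fos, Jun and Egr1, no difference from Fezf2 was shown. Library B was the lowest of the Chd4 cKO for Nr4a1, with 56.0 CPM beside 184 and 97.8, and for Atf3 and Fosb. Without it the difference was called for 5 members of the list and 16 rose with Chd4. With WT for Fezf2 B left out the difference was higher for 7 and lower for 1, and 6 or 7 rose with Chd4 without Chd4 control A, Chd4 control C, Chd4 cKO A or Chd4 cKO C.

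Cell cycle genes differed in 1 direction. Of 28 tested, 8 fell with Fezf2 and 1 rose with Chd4, and the difference was higher for 11 and lower for 0, with a range of 5 to 13 when 1 library was left out (5 or 6 without Fezf2 KO A, Fezf2 KO C, any 1 Chd4 control or Chd4 cKO C). The Chd4-higher count was 9 without WT for Fezf2 B, and the Fezf2-lower count was 5 and 4 without Fezf2 KO A and C. Mki67, the proliferation marker, read 55.5, 60.9 and 43.4 CPM in WT for Fezf2 and 19.9, 29.6 and 17.9 CPM in the KO, and 62.4, 51.7 and 61.7 against 85.0, 78.0 and 94.8 CPM for Chd4 (difference 1.79 ± 0.28, adjusted p = 0.000794).

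Thymocyte RNA moved with the Fezf2 effect. The summed level of 20 thymocyte genes was 1332, 1168 and 778 CPM in WT for Fezf2, 495 to 551 CPM in the Fezf2 KO, 240 to 254 CPM in the Chd4 controls and 276 to 300 CPM in the Chd4 cKO, with Rag2 at 0 in Chd4 control A and C. Of these genes 12 fell and 0 rose with Fezf2, 0 fell and 1 rose with Chd4, and 9 were higher for the difference. Rag1, Rag2 and Dntt, which act in antigen receptor gene assembly, were among the 12. Without Fezf2 KO A the 12 were 6, and the 9 were 4 or 5 without WT for Fezf2 A, Fezf2 KO A, Fezf2 KO B, Chd4 control A, Chd4 cKO A or Chd4 cKO C. In such bulk libraries, fewer cells of a type and less RNA per cell cannot be told apart. With the thymocyte level of each library as a covariate, 64 higher and 59 lower genes remained past the threshold for the difference and 3, 4, 6 and 5 in the 4 classes. The level did not overlap between WT for Fezf2 and Fezf2 KO, so this fit could barely part it from the genotype. For some genes the estimates moved little, the Fezf2 effect being -3.42 for Ttr, -2.08 for Hsd17b6 and 2.65 for Krt6a, but Calb1 went from -1.58 to -0.66. In that fit, which called 64 higher and 59 lower of all 15970 genes, the difference was called for 0 of 28 cell cycle genes. Tuft cell and pancreas genes also held 0, so the 0 does not set the cell cycle list apart.

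Other cell types moved less evenly. Summed macrophage and dendritic cell markers were 1272 to 1472 CPM in the Chd4 controls and 758 to 927 CPM in the cKO, and 1309 to 1607 against 938 to 1250 CPM for Fezf2. Summed endothelial markers were 99.8 to 109 CPM against 66.7 to 75.1 CPM for Chd4, and 101 to 123 against 131 to 223 CPM for Fezf2, so they lay on opposite sides of their controls. Summed cortical epithelial genes were 2090 to 2727 CPM in WT for Fezf2 and 3980 to 4793 CPM in the Fezf2 KO, with 1946 to 2293 against 2019 to 2817 CPM for Chd4. Ctsl, the cathepsin of cortical epithelium, rose in both, by 0.97 and 1.65. The part of these cells in the classes above was not tested.

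**Figure D4:**
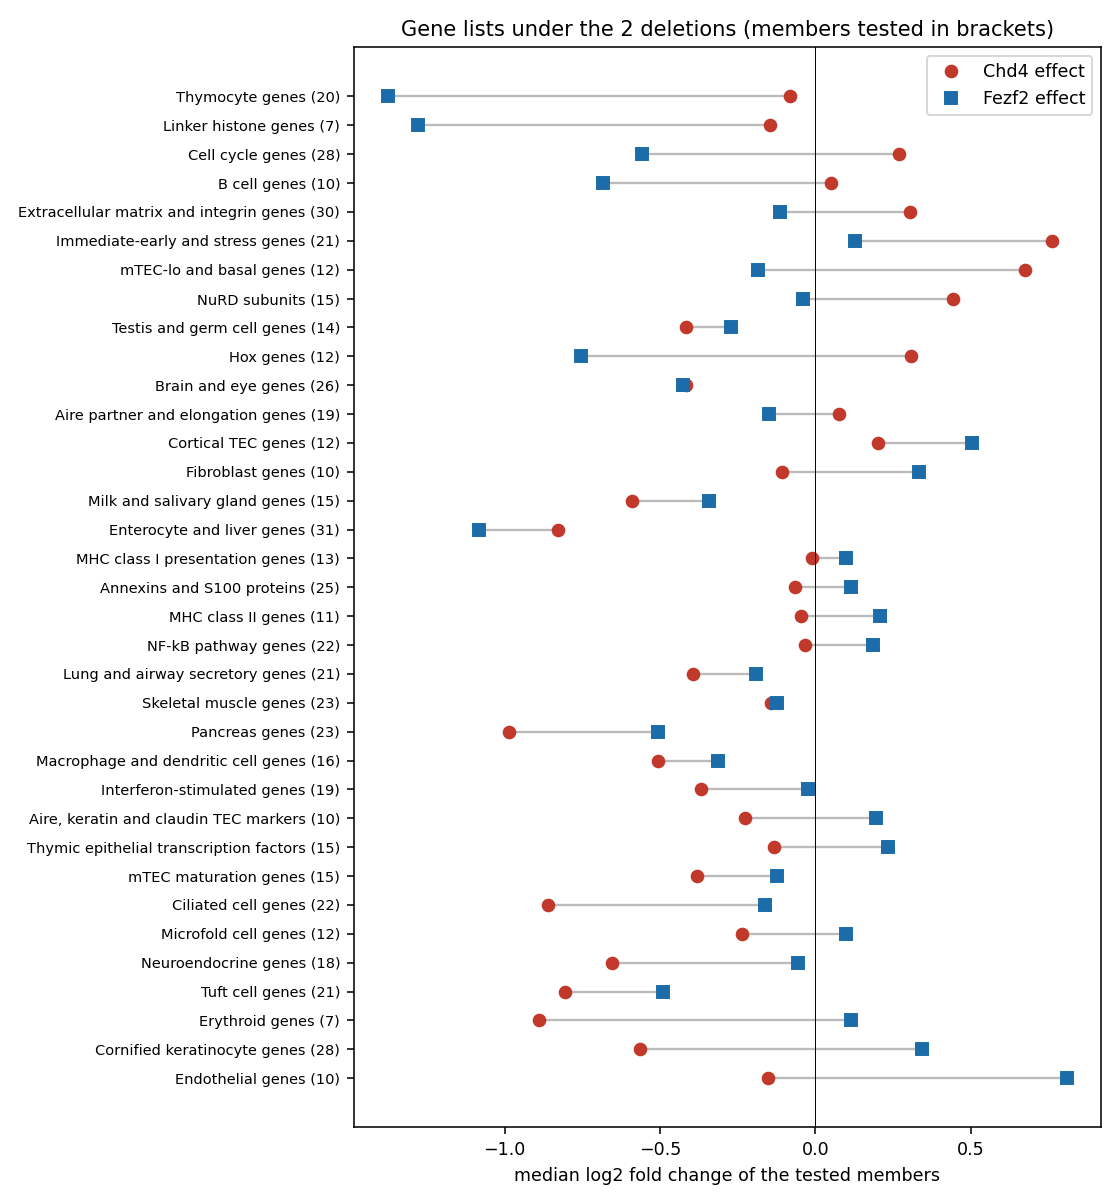
Median log2 fold change of each gene list with at least 7 tested members in the Chd4 effect (circles) and the Fezf2 effect (squares), ordered by the median difference. Enterocyte and liver genes lie at -0.83 and -1.08, cornified keratinocyte genes at -0.56 and 0.34, and cell cycle genes at 0.27 and -0.56.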

How the data were processed

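RNA of sorted mTECs was sequenced from SMART-seq v4 libraries, per the labels' protocols. The authors deposited raw read counts per gene (total exon reads), made from trimmed single reads per the file headers. The submitters' processing notes name mm10, GRCm38 and DESeq2. No label or header names an aligner or a counter. Exon lengths were the same in both tables for 10001 of 21875 shared gene IDs, so the annotation differed between experiments, and 21779 IDs had a GENCODE M21 symbol. Samples were grouped by the labels, and 216 per-library value columns were not used.

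Total exon counts of the 12 libraries were fitted in 1 model with edgeR 4.0.16 (R 4.3.3) by the quasi-likelihood test, with TMM factors and the default expression filter over 4 groups. P-values were adjusted by Benjamini-Hochberg over all 15970 tested genes, with a threshold of 0.05. Every ± on a log2 value is an approximate standard error, the absolute log2 fold change divided by the square root of the F statistic. Every interval is 95% under a normal approximation, which is somewhat narrow for 3 libraries per group. A count of 0 allows up to 3 reads, taken as the floor, for counting error only. Alternatives used limma 3.58.1 and DESeq2 1.42.0 among others. In counts simulated from these libraries, 155 of 200 genes (77.5%) given a 4-fold change in the Chd4 cKO alone were called for the difference, and 10 of 15570 unchanged genes were. The simulation gave each gene 1 spread in all 12 libraries and had no library that stood apart. The real spread was unequal, with a BCV of 0.149 in the Chd4 and 0.275 in the Fezf2 experiment. The simulated rates therefore need not hold for the real libraries.

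Named genes were Chd4, Fezf2 and Aire, the 8 largest differences per direction with a mean of at least 2 CPM, 6 per class (both kept in every fit leaving out 1 library) and up to 4 per list. Other list members were named after their values were seen. The members and the 36 lists were chosen with earlier results of these data known. A RefSeq promoter was given for 77.8% of tested genes and for 67.7% to 79.6% of the genes of each class. The planned comparison of promoter features was not made.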

Additional observations from a re-analysis of the deposited data

How the results depend on the processing

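Under other size factors, TMM within each experiment, either change of the low-count filter, all 18 libraries and a thinned Chd4 cKO B, the counts over all genes stayed within 1.5 times. Counts of short lists moved further, and with all 18 libraries Fezf2-lower tuft genes were 3 in place of 6, Chd4-higher cell cycle genes 3 in place of 1, and immediate-early genes higher for the difference 4 in place of 2. DESeq2 gave 157 genes higher in both and 186 higher with Chd4 and lower with Fezf2. limma-voom with a weight per group gave 2292 Chd4-higher, 2459 Chd4-lower, 448 Fezf2-higher and 448 Fezf2-lower genes. Separate fits gave 2168, 2175, 380 and 363, and 66 genes higher with Chd4 and lower with Fezf2. With the thymocyte level as a covariate, the difference was higher for 64 and lower for 59 genes, Fezf2 was higher for 19 and lower for 17, the 4 classes held 3, 4, 6 and 5, and 104 genes called in 1 effect differed. Without WT for Fezf2 B and Chd4 cKO B, chosen after seeing the data like the thinning, 1494 genes were Chd4-higher, and 155 were higher in both, 217 Chd4-lower with Fezf2-higher and 188 the reverse. With 1 library left out, the difference was higher for 700 to 1699 and lower for 681 to 1829 genes, Chd4 higher for 545 to 2025 and lower for 702 to 2159, and Fezf2 higher for 571 to 1276 and lower for 568 to 1222. The classes held 112 to 274, 57 to 202, 71 to 276 and 62 to 256, and 1054 to 2473 genes called in 1 effect differed. The highest counts came without WT for Fezf2 B, and the lowest without Chd4 control B, Chd4 cKO B, Chd4 cKO C or Fezf2 KO B. The difference for Chd4 itself was 0.02 with all libraries and ranged from -0.722 without WT for Fezf2 B to 0.296 without WT for Fezf2 A. The cause was not tested. For Chd4, Fezf2, Aire and the genes named for the largest differences or for a class, 2445 values under alternatives kept the call or its absence. Another 80 lost the call, 24 gained one, and 1 changed direction where either fit called it. Changes of sign without a call in either fit were counted as kept. Apart from Chd4, Fezf2 and Aire, these genes were chosen as called in every fit that left out 1 library. Those fits could thus not lose the calls that chose the genes. No paired analysis was possible because the columns carry no replicate numbers. The median standard error of the difference, 0.37, limits what could be called.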
